A study of Mus musculus with 54 samples.

Results

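The 10 genes described here encode the MHC class I pathway and its antigen processing machinery: H2-K1, H2-D1, B2m, Tap1, Tap2, Tapbp, Psmb8, Psmb9, Psmb10 and Nlrc5. They were chosen by name and found by NCBI gene identifier in all 27 deposited tables. All 10 of the 10 had a mean normalized count of at least 1, out of 19647 genes whose counts could be recovered, of which 15803 were tested. RNA was measured by poly-A sequencing in H2K myogenic progenitors, conditionally immortalized mouse muscle precursor cells, of 6 lines at 3 days of differentiation, with 3 libraries in each of the 18 groups. Wildtype progenitors carry an intact Emd gene, which encodes emerin, a protein of the inner nuclear membrane whose loss causes Emery-Dreifuss muscular dystrophy (EDMD). EMD-/y progenitors lack it. The other four lines are EMD-/y progenitors transduced by lentivirus with wildtype emerin (+EMD) or with the EDMD-causing mutants S54F, Δ95-99 or Q133H, and share the null allele of their parent line. Day 0 is the time of the switch from proliferation to differentiation medium, and days 1 and 2 are 24 and 48 h after it. The proliferation medium of every line contained 20 units/ml γ-interferon and the differentiation medium, with 5% horse serum, lists none, so that loss of interferon and day of differentiation cannot be told apart. Gas and, in the study's methods, temperature changed at the same switch. The transduced lines are puromycin-selected populations, the selecting dose differed between them, and puromycin stayed in the media of the mutant lines. For RNA, 232000 cells per well were seeded of wildtype and EMD-/y and 297000 of the mutant lines. Vector, selection, seeding density and emerin variant therefore cannot be told apart. Wildtype and EMD-/y progenitors are separate lines, from wildtype and EMD-/y mice. Origin of the line and loss of emerin therefore cannot be told apart in any comparison with wildtype. A line with a transduced empty vector and no emerin was not analysed here.

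MHC class I molecules carry peptides from inside the cell to its surface, where cytotoxic T cells read them. Proteasomes cut the peptides, TAP pumps them into the endoplasmic reticulum, tapasin holds an empty class I molecule beside TAP until a peptide fits, and the heavy chain is stable at the surface with β2-microglobulin. γ-Interferon raises the whole pathway, in part through Nlrc5, and it replaces the catalytic proteasome subunits by those of the immunoproteasome. Muscle fibers normally hold little class I protein, and myoblasts show more of it under interferon. The H2K cells themselves carry a temperature-sensitive immortalizing transgene under the H-2Kb class I promoter, which the γ-interferon of the proliferation medium switches on.

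The members lie on 3 chromosomes of the mouse (GRCm38.p6, the assembly named mm10). Chromosome 17 holds 7 of them, Tap1, Tap2, Psmb8 and Psmb9 side by side, chromosome 8 holds Psmb10 and Nlrc5, and chromosome 2 holds B2m. RefSeq promoter windows, from 250 bases before to 50 after the start, were on hand for 8 members. Those of both heavy chains, B2m, Tap1 and Psmb8 are shown because these members differ in how much they moved between days, and because the heavy chain windows hold the interferon response letters for which the class I promoter is known. Capitals mark 6 motifs searched on both strands: GAANNGAAA and the interferon-stimulated response repeat (GAAA, any 2 bases, GAAA), which interferon regulatory factors bind, TTCNNNGAA, the γ-activated site, GGGNNTTCC, a core of NF-κB sites, TGACG, the core of the X2 box of the SXY module that the Nlrc5 enhanceosome uses, and CCAAT. The second of them was searched after the windows had been read.

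H2-K1: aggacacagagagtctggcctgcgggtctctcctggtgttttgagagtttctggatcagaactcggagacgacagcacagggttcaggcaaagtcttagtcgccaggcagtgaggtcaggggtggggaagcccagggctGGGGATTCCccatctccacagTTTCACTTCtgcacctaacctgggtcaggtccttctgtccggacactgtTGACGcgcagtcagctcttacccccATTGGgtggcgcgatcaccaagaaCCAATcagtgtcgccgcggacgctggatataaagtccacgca
H2-D1: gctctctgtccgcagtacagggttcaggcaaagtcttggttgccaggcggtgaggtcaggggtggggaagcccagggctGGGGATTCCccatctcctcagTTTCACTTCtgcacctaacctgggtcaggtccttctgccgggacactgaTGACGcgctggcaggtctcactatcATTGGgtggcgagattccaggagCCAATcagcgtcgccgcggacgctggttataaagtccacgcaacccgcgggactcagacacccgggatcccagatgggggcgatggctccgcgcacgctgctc
B2m: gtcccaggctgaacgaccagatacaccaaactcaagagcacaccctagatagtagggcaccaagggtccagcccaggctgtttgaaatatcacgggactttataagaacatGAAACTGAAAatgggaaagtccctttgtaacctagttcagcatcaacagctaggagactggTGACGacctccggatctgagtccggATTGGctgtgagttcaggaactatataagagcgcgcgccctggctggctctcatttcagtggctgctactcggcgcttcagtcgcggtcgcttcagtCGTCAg
Tap1: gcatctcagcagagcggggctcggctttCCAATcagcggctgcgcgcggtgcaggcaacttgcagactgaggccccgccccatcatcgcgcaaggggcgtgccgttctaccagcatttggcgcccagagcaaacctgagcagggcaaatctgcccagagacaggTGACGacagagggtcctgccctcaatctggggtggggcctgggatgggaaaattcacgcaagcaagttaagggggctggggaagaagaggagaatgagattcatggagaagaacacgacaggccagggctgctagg
Psmb8: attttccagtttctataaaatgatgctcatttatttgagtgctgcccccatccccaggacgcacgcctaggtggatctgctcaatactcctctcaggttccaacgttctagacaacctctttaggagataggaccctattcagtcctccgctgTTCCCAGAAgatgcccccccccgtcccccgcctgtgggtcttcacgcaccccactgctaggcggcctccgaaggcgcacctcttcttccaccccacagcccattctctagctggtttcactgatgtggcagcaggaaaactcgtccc

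The H2-K1 window is chr17:34000298-34000597 on the minus strand, the more upstream of 2 listed starts, and the H2-D1 window is chr17:35262844-35263143 on the plus strand. B2m (chr2:122147437-122147736), Tap1 (chr17:34187306-34187605) and Psmb8 (chr17:34197945-34198244) are on the plus strand. The Tap1 window shares 275 of its 300 bases with that of Psmb9, which is read from the other strand. GAANNGAAA, in 7.52% of 32851 mouse promoter windows, was in the windows of H2-K1 and H2-D1 among the 8 members. The response repeat, in 3.44% of all windows, was in B2m alone, and TTCNNNGAA, in 8.3%, was in Psmb8 alone. GGGNNTTCC, in 5.82%, was again in both heavy chains, just upstream of the interferon letters. TGACG, in 20.8%, was in H2-K1, H2-D1, B2m, Tap1 and Psmb9. CCAAT, in 37.4%, was in those 5 and in Tapbp, and the Psmb10 window held none of the 6. These matches describe letters and not bound sites.

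The libraries held between 16006647 and 19607354 counts. Emd was between 1151 and 2062 normalized counts in the 9 wildtype libraries and at most 2.92 in the other 45, those with transduced emerin included, so that the transgene cannot be seen in the mouse Emd count. Of the 8 myogenic markers, 7 had recovered counts and Myh3 had none. Myod1 was between 4730 and 26300 in all 54 libraries. Des lay between 7250 and 73400, Cdh15 between 2940 and 19800 and Myog between 1870 and 58400. Others were low in some libraries: Pax7 ranged from 0.923 to 2420, Ckm from 9.5 to 11400 and Myf5 from 124 to 1610. Of the 8 leukocyte markers, the pan-leukocyte gene Ptprc was at 0 in 35 libraries and at most 4.58, Cd3e was at 0 in 43 and Adgre1 in 51, while Cd68 was at 0 in none (6.7 to 149), Csf1r was at 0 in 4 (up to 25.9) and Itgam reached 325. No endothelial marker was above 50.2 and no fibro-adipogenic marker above 78.1 in any library. All 54 libraries were nearest to a library of their own group. Within each group, the 2 libraries with the highest Pearson r are called the close pair, so each group has such a pair by construction. The r was 0.56 to 0.88 within these pairs and 0.49 to 0.86 between a pair and the remaining library. How far the remaining library stood apart differed between groups. In EMD-/y day 0, r was 0.79 within the pair and at most 0.57 to the remaining library. In wildtype day 2 these values were 0.88 and 0.86, and in S54F day 2 both were 0.80. The labels speak of 3 technical replicates and of 2 biological replicates without saying which sample is which, so p-values measure the spread between these samples, which may be partly technical. Libraries are called a, b and c within a group by size factor, and the letters are not replicate numbers. The mean chi-square per gene against counting error was 2.71 within the pair of wildtype day 0, against 32.7 and 33.3 to library c. In Q133H day 0 it was 3.05, against 44.6 and 43.4 to library c. In +EMD day 0 it was 18.7 within the pair, against 11.5 and 25 to library a. The fits count all 3 libraries of a group as independent. Where a close pair is technical, SD, SE and p-values may be too small. The fits were therefore repeated with the close pair of each group averaged to 1 value, an alternative chosen after seeing the data, and with each library left out. Leaving out the library outside the close pair of a group leaves that pair alone, whose spread may be technical.

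**Figure D1:**
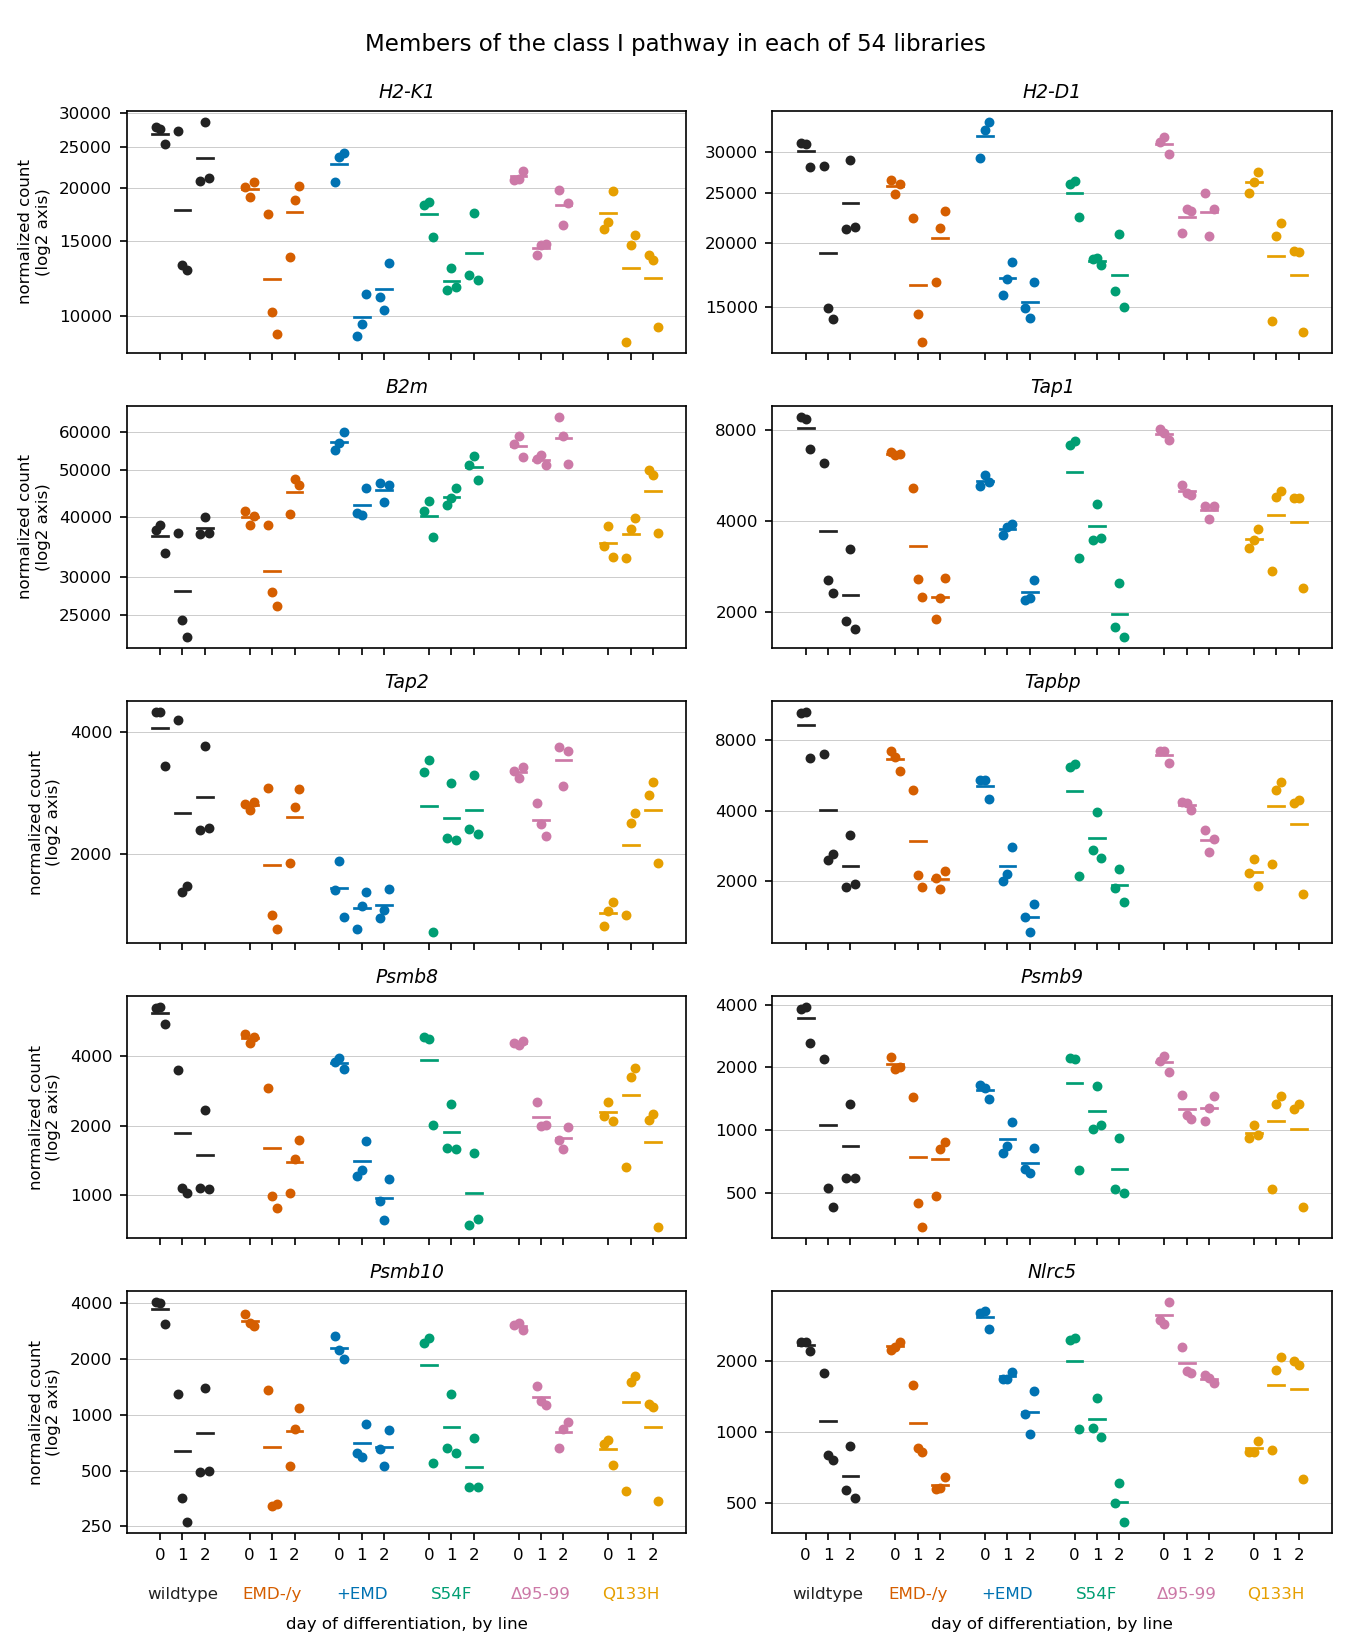
Normalized count (log2 axis) of the 10 members in each of 54 libraries, by line and day of differentiation. Points are libraries and bars are group means of 3. Psmb10 spans the widest range, from 263 to 4041, and in wildtype and EMD-/y at day 1 the library a lies above b and c for every member.

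The members differed in level by far more than they moved. Per kilobase of the gene length given in the tables, the mean over 54 libraries was 50700 normalized counts for B2m, the light chain that all class I molecules share. The heavy chains followed, with 12800 for H2-D1 and 10070 for H2-K1. The immunoproteasome subunits had 2354 (Psmb8), 1607 (Psmb9) and 1069 (Psmb10), and the transporter and loading genes had 1474 (Tap1), 975 (Tap2) and 1401 (Tapbp). Nlrc5, the transactivator of class I genes, was the lowest at 229. As plain normalized counts, which do not correct for length, the highest library was 2.67-fold above the lowest for H2-D1, 2.86-fold for B2m and 3.28-fold for H2-K1, and 15.3-fold for Psmb10, 11.5-fold for Psmb9 and 9.04-fold for Psmb8. Heavy chains and B2m thus moved within a narrower range than the inducible proteasome subunits.

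Group means were highest in wildtype at day 0 for 7 members, H2-K1, Tap1, Tap2, Tapbp, Psmb8, Psmb9 and Psmb10. Psmb10, for example, was 3701 ± 526 (SD, n = 3) there and 521 ± 198 in S54F at day 2, its lowest group. Tapbp was 9271 ± 2219 in wildtype at day 0 and lowest in +EMD at day 2, at 1400.4 ± 192. H2-D1 was highest in +EMD at day 0 (32198 ± 2648), and Nlrc5 in Δ95-99 at day 0 (3155 ± 374). B2m alone was highest on the last day, in Δ95-99 (58276 ± 6518), and lowest in wildtype at day 1 (28052 ± 7919). The order of the groups was therefore not the same for the light chain as for its partners. Tap2 was the member whose lowest group was Q133H at day 0 (1428 ± 101).

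Most of the class I pathway fell in wildtype progenitors over the first day of differentiation. A gene was called when its limma adjusted p, over all 15803 genes, was under 0.05 and its log2 fold change at least 1 in size. In wildtype, 6 of the 10 members were called lower at day 1 than at day 0, Tap1, Tapbp, Psmb8, Psmb9, Psmb10 and Nlrc5, against 10.3% of all genes tested. All 10 members had a log2 fold change below 0, with a median of -1.24 beside -0.01 over all genes. In bulk RNA, fewer cells that express a gene and less RNA per cell cannot be told apart. Normalized counts in libraries a, b and c are given in that order for each group from here on.

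The largest falls were those of the immunoproteasome. Psmb10, which replaces the subunit Psmb7, had 4041, 3967 and 3094 at day 0 and 1293, 354 and 263 at day 1 in wildtype. The groups did not overlap, and library a of day 1 was well above the other two. Psmb10 fell by 2.89 ± 0.54 (SE) on the log2 scale, 7.42-fold lower (limma adjusted p = 2.18e-05). Psmb8, which replaces Psmb5, had 6502, 6554 and 5503 at day 0 and 3486, 1071 and 1023 at day 1. Its log2 fold change was -1.98 ± 0.42 (SE), limma adjusted p = 0.00011. Psmb9, which replaces Psmb6, had 3813, 3908 and 2625 and then 2206, 528 and 425, a log2 fold change of -2.10 ± 0.48 (SE), limma adjusted p = 0.000295. Library a of day 1 held over 4 times the Psmb9 of libraries b and c, and still lay under all 3 libraries of day 0.

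Of the genes that bring peptides to class I molecules in the endoplasmic reticulum, Tap1 and Tapbp fell. Tap1, a subunit of the peptide transporter, had 8849.7, 8689 and 6922 at day 0 and 6242, 2549 and 2312 at day 1 in wildtype, a log2 fold change of -1.28 ± 0.30 (SE), limma adjusted p = 0.000352. Tapbp, which encodes tapasin, had 10509.8, 10593 and 6709 and 6976, 2457 and 2604, with a log2 fold change of -1.35 ± 0.36 (SE), limma adjusted p = 0.00142. Here the groups overlapped, since library a of day 1 was above library c of day 0. Tap2, the other subunit of the transporter, had 4490.4, 4497 and 3301 and 4296, 1611 and 1660.2. It missed the minimum fold, with a log2 fold change of -0.85 ± 0.30 (SE), limma adjusted p = 0.0152, and without wildtype day 1 library a it was among the 9 members called.

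Nlrc5 itself fell from 2425, 2426 and 2220.4 to 1784, 796 and 757 in wildtype, with no overlap, at a log2 fold change of -1.20 ± 0.33 (SE), limma adjusted p = 0.00206. The molecules that present the peptides had smaller differences. H2-K1, a classical heavy chain, had 27738, 27436 and 25328 at day 0 and 27164, 13169 and 12842 at day 1, and H2-D1 had 31249, 31098 and 28069 and 28134, 14939 and 14272. In both, library a of day 1 was at the level of day 0 and the other two libraries lay far below it. Their log2 fold changes were -0.69 ± 0.21 (SE), limma adjusted p = 0.00583, and -0.73 ± 0.18 (SE), limma adjusted p = 0.000807, short of the minimum fold. B2m, at 37497, 38527 and 33662 and 37127, 24480.3 and 22547, had the smallest difference of the 10 (-0.42 ± 0.13 (SE), limma adjusted p = 0.0058).

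The count of calls in wildtype depends on library a of day 1. Without it, 9 members were called lower and the median log2 fold change was -1.67. The added members were H2-K1, H2-D1 and Tap2. These calls rest on libraries b and c, the close pair of that day. Their mean chi-square per gene was 4.7, against 37.4 and 43.6 to library a, so the spread between them may be technical. Without library c of day 1, 5 were called, Nlrc5 being lost. With the close pairs averaged, 2 were called, Psmb8 (-1.65, limma adjusted p = 0.0312) and Psmb10 (-2.48, limma adjusted p = 0.0144), with all 10 differences still below 0.

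EMD-/y progenitors gave nearly the same picture. The same 6 members as in wildtype were called lower at day 1 (9.08% of all genes), and the median of the 10 was -1.13 beside 0.01 over all genes. Psmb10 had 3471, 3103 and 2989.9 at day 0 and 1351, 321 and 331 at day 1, a log2 fold change of -2.60 ± 0.55 (SE), limma adjusted p = 0.000106. Psmb8 had 4996, 4584 and 4842 and 2927, 988 and 877, a log2 fold change of -1.82 ± 0.42 (SE), limma adjusted p = 0.000347. As in wildtype, library a of day 1 was well above its neighbours and the groups did not overlap. The log2 fold changes of the other four called members were -1.11 for Tap1, -1.29 for Tapbp, -1.78 for Psmb9 and -1.16 for Nlrc5. H2-K1 (-0.76), H2-D1 (-0.68), Tap2 (-0.59) and B2m (-0.39) did not reach the minimum fold. Without EMD-/y day 1 library c, 4 members were called, Tap1 and Nlrc5 being lost, without library b Tap1 was lost, without library a H2-K1 was gained, and with close pairs averaged 2 were, again Psmb8 and Psmb10.

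In +EMD, 4 members were called lower at day 1, against 6.08% of all genes, with a median of -0.87. H2-K1 was one of them. It had 20634, 23648 and 24207 at day 0 and 9016, 9587 and 11270.4 at day 1, a log2 fold change of -1.20 ± 0.21 (SE), limma adjusted p = 1.22e-05. The 3 libraries of each day lay close together and the call held with close pairs averaged (limma adjusted p = 0.00767). Its change was not shown to differ from that of H2-K1 in wildtype (difference -0.51 ± 0.30 (SE), limma adjusted p = 0.226). The other calls were Tapbp (-1.15), Psmb8 (-1.44) and Psmb10 (-1.72), and each missed the threshold with close pairs averaged (limma adjusted p between 0.0875 and 0.106). Tap1 (-0.53) and Tap2 (-0.16) did not pass.

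Fewer members were called in the mutant lines over the same day. In Δ95-99, limma-voom called 2 members and limma only Psmb8, which was lower (6.6% of all genes). Psmb8 went from 4572, 4494 and 4669 to 2541, 1991 and 2019, at a log2 fold change of -1.08 ± 0.42 (SE), limma adjusted p = 0.0356. This call was lost in 5 of the 6 fits that left out a library of its groups and kept only without day 1 library a, while all 10 members were below 0 (median -0.66). In S54F no member was called by limma (15.9% of all genes were), and 4 members had an unadjusted p under 0.05. The limma-voom fit also called 0. Library c of S54F day 0 stood apart from the other two, with Psmb10 at 2432, 2581 and 546. Without it, 4 members were called lower, Tapbp, Psmb8, Psmb10 and Nlrc5, and the median went from -0.51 to -0.90. Without S54F day 1 library b, Psmb8 was called.

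Outside the heavy chains, Q133H progenitors did not show the fall. None of the 10 members was called between day 0 and day 1 by limma or limma-voom, while 11.6% of all genes were, and 4 had an unadjusted p under 0.05. The log2 fold changes were above 0 for 8 members, with a median of 0.17 beside -0.03 over all genes, and the highest was that of Tapbp (0.86 ± 0.36 (SE)). H2-D1 was the only member with a limma adjusted p under 0.05, at a log2 fold change of -0.50 ± 0.18 (SE), limma adjusted p = 0.0287, and it was lower. H2-K1 was the other member below 0, with 16051, 16609 and 19640.4 at day 0 and 8713, 14715 and 15504 at day 1. Psmb10 had 695, 726 and 539 at day 0 and 388, 1506 and 1614 at day 1. Libraries b and c of day 1 were above all of day 0 and library a was below them. Without Q133H day 1 library a, 2 members were called higher, Tapbp and Nlrc5, and the median was 0.55.

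**Figure D2:**
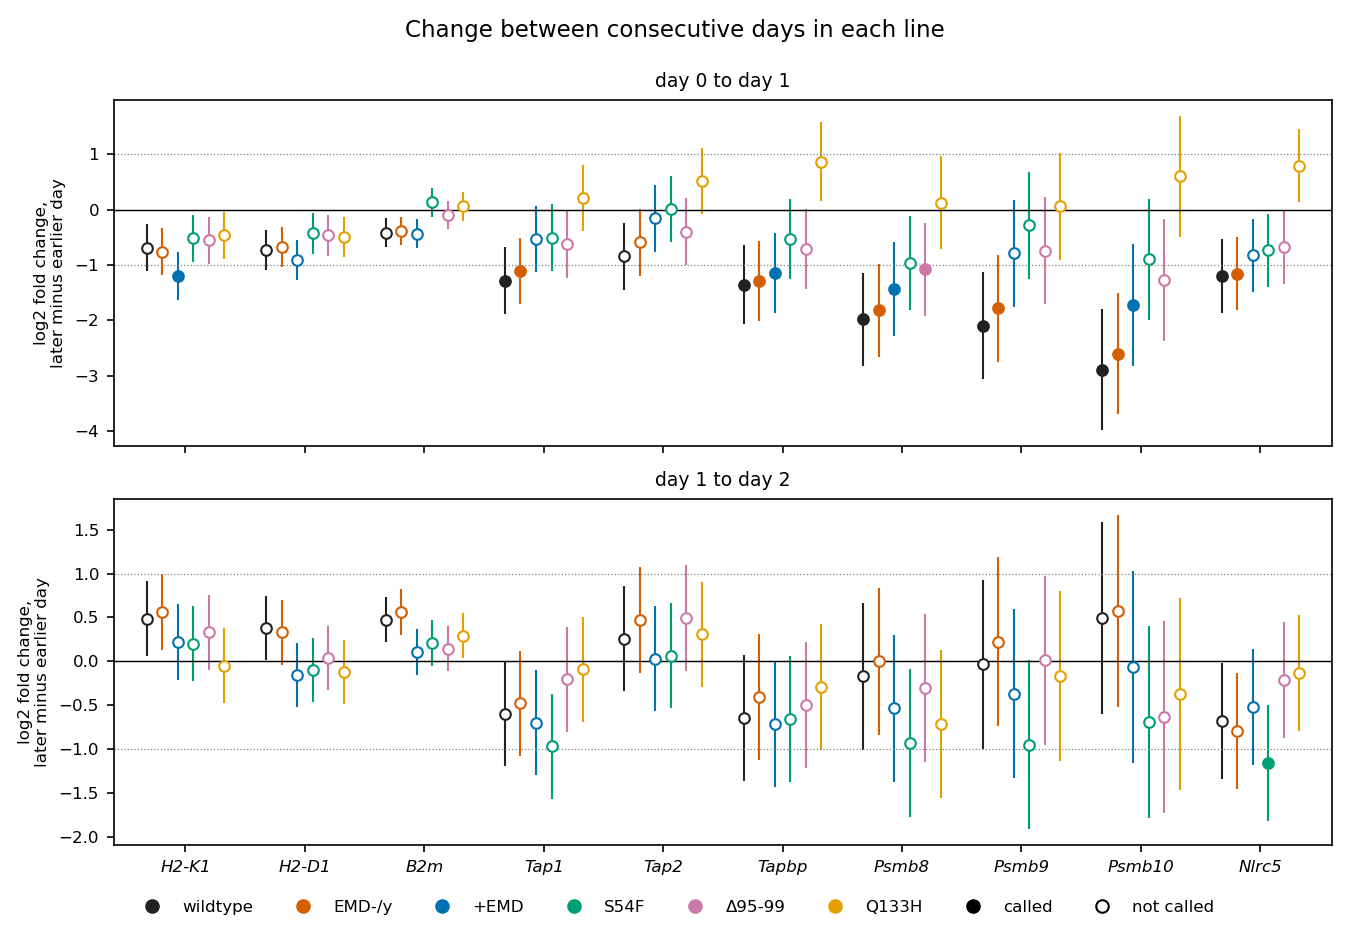
Log2 fold change of each member from day 0 to day 1 (top) and from day 1 to day 2 (bottom) in 6 lines, with bars of 2 SE from the limma fit over 54 libraries. Filled points are called and dotted lines mark the minimum fold. From day 0 to day 1 all points of wildtype lie below 0 and 8 of the 10 points of Q133H lie above it.

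From day 1 to day 2 few members passed the test. The medians of the 10 members lay between -0.67 (S54F, with 7 of 10 below 0) and 0.27 (EMD-/y). The medians of wildtype and EMD-/y depend on library a of day 1, without which they were 0.69 in place of 0.11 and 0.65 in place of 0.27. With any library left out in turn, the median ranged from -0.22 to 0.69 in wildtype, -0.01 to 0.65 in EMD-/y, -0.46 to 0.21 in Q133H and -0.88 to -0.41 in S54F. No member was called in wildtype, EMD-/y, +EMD, Δ95-99 or Q133H by limma or limma-voom, with 4, 3, 1, 0 and 1 at an unadjusted p under 0.05, while 19.5%, 18.6%, 19.7%, 13.9% and 10.4% of all genes were called. B2m was the one with the clearest difference. It had 38559, 28009.7 and 26118 at day 1 and 40621, 47864 and 46510.3 at day 2 in EMD-/y, without overlap, a log2 fold change of 0.56 ± 0.13 (SE), limma adjusted p = 0.000334, below the minimum fold. In wildtype its log2 fold change was 0.47 ± 0.13 (SE), limma adjusted p = 0.002. In S54F, Nlrc5 was called lower (10.3% of all genes), from 1044, 1398 and 955 to 499, 607 and 414. The groups did not overlap and the log2 fold change was -1.16 ± 0.33 (SE), limma adjusted p = 0.00305. Tap1 was called as well without S54F day 1 library a or c, and Tap1 and Psmb8 without day 2 library b. In Q133H, Psmb8 was called without day 1 library a. The S54F call of Nlrc5 was lost without S54F day 1 library b and with close pairs averaged (limma adjusted p = 0.0511).

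Compared with wildtype, the Q133H line stood out at day 0. Of the 10 members, 7 were called lower, against 8.49% of all genes tested, and the median log2 fold change was -1.45 beside -0.01 over all genes. All 3 libraries of Q133H lay below all 3 of wildtype for 9 members, as they did for 24% of all genes. Across the 6 fits that left out a library of these groups, the same 7 members were called each time. With close pairs averaged, 4 of them were called, Tap2, Tapbp, Psmb10 and Nlrc5. Every line is compared with the same 3 wildtype libraries of a day, and the wildtype values are those given above.

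Psmb10 had 695, 726 and 539 in Q133H at day 0, 5.67-fold lower than wildtype (log2 fold change -2.50 ± 0.55 (SE), limma adjusted p = 0.000341). Psmb9 had 913, 1053 and 944 (log2 fold change -1.81 ± 0.48 (SE), limma adjusted p = 0.00281) and Psmb8 had 2209.8, 2535 and 2105 (-1.44 ± 0.42 (SE), limma adjusted p = 0.00622). The 3 Q133H libraries were close to each other for each of these subunits. Tapbp, at 2158, 2496 and 1907, was 4.17-fold lower (-2.06 ± 0.36 (SE), limma adjusted p = 1.41e-05). Tap1 had 3258, 3453 and 3769 (-1.22 ± 0.30 (SE), limma adjusted p = 0.00129), and Tap2 had 1321, 1441 and 1522 (-1.51 ± 0.30 (SE), limma adjusted p = 0.000101). Both subunits of the transporter were thus lower, by similar amounts. Nlrc5 had 826, 823 and 920, 2.75-fold lower (-1.46 ± 0.33 (SE), limma adjusted p = 0.000509). The presenting molecules were not called. H2-K1 had 16051, 16609 and 19640.4 (-0.63 ± 0.21 (SE), limma adjusted p = 0.0191), H2-D1 had a log2 fold change of -0.20 ± 0.18 (SE), and B2m, at 34790.1, 38224 and 33098, one of -0.05 ± 0.13 (SE).

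Markers of other cells moved with line and day as well. The 8 leukocyte markers summed to 36.6, 34 and 19.3 in wildtype at day 0, 104, 112 and 122 at day 1 and 351, 269 and 303 at day 2. These sums were higher at each later day. In Q133H at day 0 the sum was 61.9, 54.1 and 47.4, above wildtype. The 4 endothelial markers summed to 36.6, 34 and 25.4 in wildtype and 20.3, 29.4 and 17.8 in Q133H at day 0, and the 4 fibro-adipogenic markers to 73.3, 50.5 and 52.7 and 54.5, 58 and 42.5. The 7 myogenic markers with counts summed to 39710, 39970 and 41660 in wildtype and 26670, 28080 and 41780 in Q133H at day 0. At day 1 they summed to 91070, 92090 and 104100 in wildtype and 28720, 18740 and 18390 in Q133H. Their part in the results was not tested.

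At day 1, Q133H had no call by limma or limma-voom (23.9% of all genes were called, and 1 member had an unadjusted p under 0.05), and its median was 0.31. Leaving out either wildtype day 1 library a or Q133H day 1 library a gave 2 members called higher, Psmb8 and Psmb10. At day 2, Nlrc5 was called higher (17.8% of all genes), with 565, 873 and 522 in wildtype and 2016, 1922 and 634 in Q133H. Library c of Q133H overlapped with wildtype and the other two were over 2 times as high as any wildtype library. The log2 fold change was 1.08 ± 0.33 (SE), limma adjusted p = 0.00403, lost with close pairs averaged (limma adjusted p = 0.22) and without Q133H library a or b or wildtype library a or c. H2-K1 was lower at day 2, at 13900.5, 13598 and 9472 against 20813, 28597 and 21085 in wildtype, without overlap and just short of the minimum fold (-0.94 ± 0.21 (SE), limma adjusted p = 0.000202). In those same 4 fits H2-K1 was called lower. Without Q133H library c or wildtype library b, Tap1 was called higher. With close pairs averaged H2-K1 passed (-1.10, limma adjusted p = 0.00444).

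No difference between EMD-/y and wildtype passed the test in these genes. No member was called by limma or limma-voom at day 0, 1 or 2, with 1, 1 and 0 at an unadjusted p under 0.05, while 7.95%, 6.77% and 7.81% of all genes were. The log2 fold changes lay between -0.72 and 0.13 at day 0, -0.50 and 0.15 at day 1 and -0.42 and 0.24 at day 2. At day 0, 9 of the 10 members were below 0 (median -0.32), and for 6 of them, H2-K1, H2-D1, Tap1, Tap2, Psmb8 and Psmb9, all 3 EMD-/y libraries lay below all 3 of wildtype, as for 16.8% of all genes. For Psmb10 the interval of 2 SE around the difference ran from -1.30 to 0.89 at day 0, -1.01 to 1.18 at day 1 and -0.93 to 1.26 at day 2. For B2m, with a standard error of 0.13, the difference at day 0 was 0.13 ± 0.13 (SE).

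B2m was higher than wildtype in several groups of the transduced lines, by amounts under the minimum fold. At day 1 it had 37127, 24480.3 and 22547 in wildtype and 52799.8, 53656 and 51129 in Δ95-99. All 3 Δ95-99 libraries were above all wildtype ones and the log2 fold change was 0.94 ± 0.13 (SE), limma adjusted p = 9.09e-08. It was 0.63 ± 0.13 (SE), limma adjusted p = 8.19e-05 in +EMD, and 0.68 ± 0.13 (SE), limma adjusted p = 5.72e-05 in S54F. Wildtype library a lay closest to these lines and without it B2m was called in Δ95-99. At day 0, B2m had 54934, 56780.1 and 59973 in +EMD and 56525, 58837 and 53128 in Δ95-99, with log2 fold changes of 0.65 ± 0.13 (SE), limma adjusted p = 6.49e-05, and 0.62 ± 0.13 (SE), limma adjusted p = 0.000215. Both held with close pairs averaged (limma adjusted p = 0.00947 and 0.0218). In S54F (0.14 ± 0.13 (SE)) and Q133H (-0.05 ± 0.13 (SE)) at day 0 B2m did not pass.

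The heavy chain H2-K1 went the other way. It was called lower in +EMD at day 2 (7.5% of all genes), with 20813, 28597 and 21085 in wildtype and 11136, 10350.4 and 13337 in +EMD. The groups did not overlap, and the log2 fold change was -1.01 ± 0.21 (SE), limma adjusted p = 0.000133. It sits at the minimum fold, and the call was lost without +EMD library a, +EMD library b or wildtype library b. Without +EMD library b or wildtype library b, Nlrc5 was called, and it was higher than in wildtype. The corresponding values of H2-K1 were -0.74 ± 0.21 (SE), limma adjusted p = 0.00683 in S54F, and -0.36 ± 0.21 (SE) in Δ95-99, which did not pass. H2-D1, which differs from H2-K1 in its peptide binding groove, was lower in +EMD at day 2 by less (-0.62 ± 0.18 (SE), limma adjusted p = 0.00436). The 100-base windows of the H2-K1 transcripts were shared with no other gene and 4.09% of those of H2-D1 were, mainly with H2-Q1.

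The remaining limma calls against wildtype were single members. In +EMD at day 0, Tap2 was called lower (10.9% of all genes), at 1621, 1913 and 1392 against 4490.4, 4497 and 3301. The groups were far apart, the log2 fold change was -1.32 ± 0.30 (SE), limma adjusted p = 0.000373, and the call held in all 6 fits that left out a library and with close pairs averaged. Tap1, its partner, was not called there (-0.58 ± 0.30 (SE)). By limma-voom 2 members were called in +EMD at day 0. Without wildtype library c, Psmb9 and Tapbp were called by limma as well. In S54F at day 0, where limma-voom called 3 members, limma called Tapbp lower (5.86% of all genes). Tapbp was at 6129, 6341 and 2109 (log2 fold change -1.06 ± 0.36 (SE), limma adjusted p = 0.0206). Library c stood apart, and without it no S54F member was called at day 0, nor was one without wildtype library a or b. Without S54F library a or b, Psmb9 and Psmb10 were called as well, and Tap2 without b, and without wildtype library c Psmb9 was. In Δ95-99 at day 1, Psmb10 was called higher (9.21% of all genes), at 1433, 1181 and 1129 against 1293, 354 and 263 (log2 fold change 1.33 ± 0.55 (SE), limma adjusted p = 0.0393). The groups overlapped because of wildtype library a, without which 6 members were called higher, Psmb10, Psmb9, Psmb8, Tap1, Nlrc5 and B2m. The wildtype libraries left in that fit were the close pair. In each of the other 5 fits that left out a library, Psmb10 was not called. In Δ95-99 at day 2, Nlrc5 was called higher (13.3% of all genes), at 1753, 1699.5 and 1615 against 565, 873 and 522. All 3 libraries were clear of wildtype, and the log2 fold change was 1.41 ± 0.33 (SE), limma adjusted p = 0.000415, which held in every fit that left out a library and with close pairs averaged. Without Δ95-99 library b or wildtype library b, Tap1 was called as well. No member was called by limma or limma-voom in +EMD at day 1, S54F at days 1 and 2 or Δ95-99 at day 0, with 4, 2, 3 and 1 at an unadjusted p under 0.05 and 19.1%, 11.9%, 11.3% and 11.6% of all genes called. Without wildtype day 1 library a, Nlrc5 was called higher in +EMD and Psmb9 higher in S54F at day 1.

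**Figure D3:**
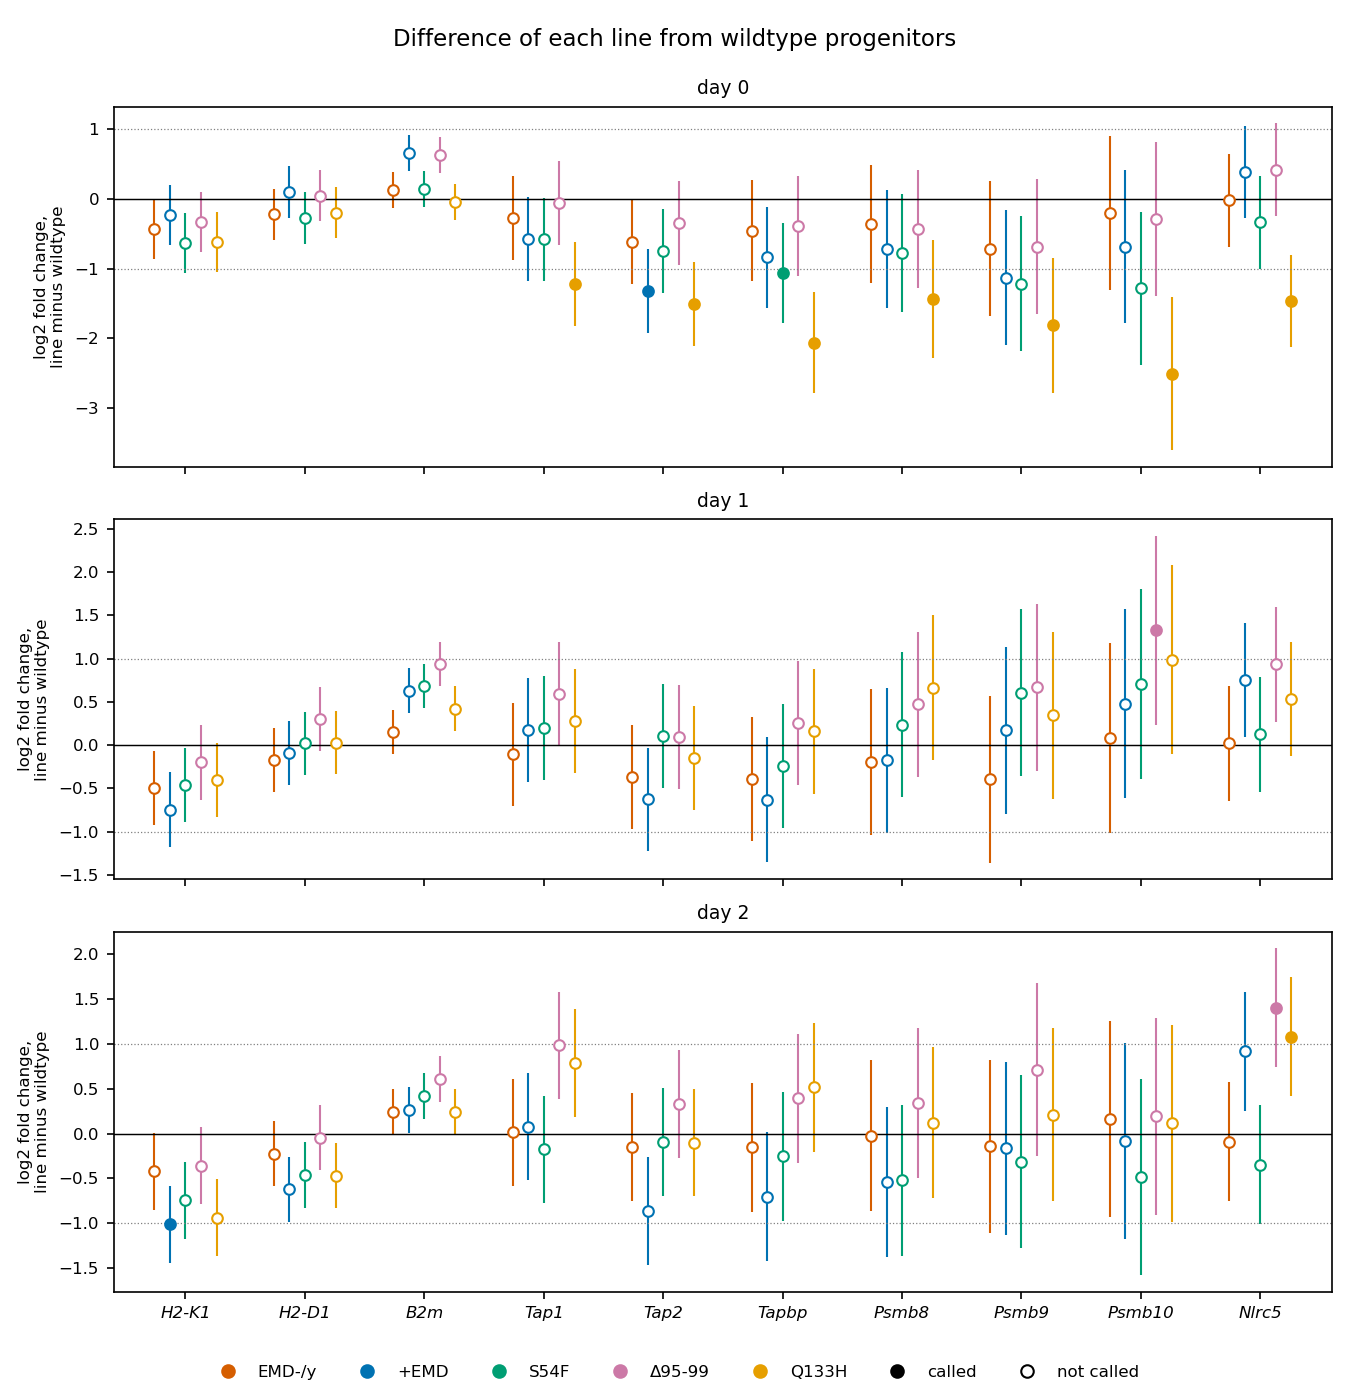
Log2 fold change of each member against wildtype at days 0, 1 and 2 in 5 lines, with bars of 2 SE from the limma fit over 54 libraries. Filled points are called and dotted lines mark the minimum fold. At day 0 the 7 filled points of Q133H lie between -1.22 and -2.50, and no point of EMD-/y is filled on any day.

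+EMD was also compared with its parent line EMD-/y, from which it differs by added wildtype emerin, the lentivirus and puromycin selection together. No member was called by limma or limma-voom at days 0 and 1 (11.3% and 14.3% of all genes were), with 2 at an unadjusted p under 0.05 on each day. At day 2, Nlrc5 was called higher in +EMD (7.39% of all genes), at 1189, 978 and 1497 against 570.1, 579 and 647 in EMD-/y. The log2 fold change of 1.01 ± 0.33 (SE), limma adjusted p = 0.012, sits at the minimum fold and was lost without +EMD library c, without EMD-/y library a, without EMD-/y library b and with close pairs averaged. Without EMD-/y day 1 library a, 2 members were called higher at day 1, Psmb9 and Nlrc5. B2m was higher in +EMD at day 0 (0.52 ± 0.13 (SE), limma adjusted p = 0.00159) and at day 1 (0.47 ± 0.13 (SE), limma adjusted p = 0.00265), below the minimum fold.

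Whether a line's step from day 0 to day 1 differed from that of wildtype was tested as a contrast of its own, at a limma adjusted p under 0.05 and with no minimum fold. In Q133H the difference passed for 8 members, all higher, Psmb10, Tapbp, Psmb9, Psmb8, Nlrc5, Tap1, Tap2 and B2m. Of all genes, 19.5% were higher by this test, so that differing steps were common in this line. The difference was 3.49 ± 0.77 (SE), limma adjusted p = 0.000405 for Psmb10, and 2.22 ± 0.51 (SE), limma adjusted p = 0.00057 for Tapbp. H2-K1 (0.22 ± 0.30 (SE)) and H2-D1 (0.23 ± 0.26 (SE)) did not pass. These differences combine 4 groups, and they carry both the low day 0 of Q133H and the fall in wildtype. In S54F only B2m passed by limma (0.55 ± 0.18 (SE), limma adjusted p = 0.0335), against 9.37% of all genes that were higher. By limma-voom 2 members passed in S54F. In EMD-/y, +EMD and Δ95-99 no member passed by limma or limma-voom (0, 0 and 1 at an unadjusted p under 0.05, and 0.551%, 24.4% and 29% of all genes). From day 1 to day 2 no member passed in any of the 5 lines by either fit, with 0, 1, 0, 0 and 0 at an unadjusted p under 0.05 in EMD-/y, +EMD, S54F, Δ95-99 and Q133H. The shares of all genes were 0.861%, 23.1%, 5.71%, 29% and 39.9%. With close pairs averaged, no difference passed in any line. Without wildtype day 1 library a, 30 of the 100 tests passed in place of 9. That fit leaves only the close pair b and c as wildtype at day 1.

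Over all libraries pooled, the members mostly moved together within their groups. Each library's log2 value was set against its group mean, and over the 54 libraries these deviations correlated between members with Pearson r of 0.76 to 0.98 (45 pairs, median 0.91). These are descriptions, since libraries of a group share line, day and medium, and all members share a library's depth. In some libraries near their group mean the members were split. In +EMD day 0 library a and in Q133H day 0 library c, 5 of the 10 were above it. The library farthest from its group was wildtype day 1 library a, in which all 10 members were above the group mean, by 0.94 on average on the log2 scale. EMD-/y day 1 library a (0.80) and wildtype day 2 library b (0.52) were also high for all 10. S54F day 0 library c (-0.76), Q133H day 2 library c (-0.73) and Q133H day 1 library a (-0.69) were low for all 10. Each of these 6 was the library outside the close pair of its group. In Q133H the low libraries of days 1 and 2 were higher in myogenic markers than their groups, by 0.37 and 0.68 on the log2 scale, and in the other four the myogenic markers deviated by at most 0.07 in size. Over 54 libraries, the mean deviation of the members had r = 0.98 with that of 17 other γ-interferon-induced genes and r = -0.33 with that of the myogenic markers. The part of any of these in the results was not tested.

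**Figure D4:**
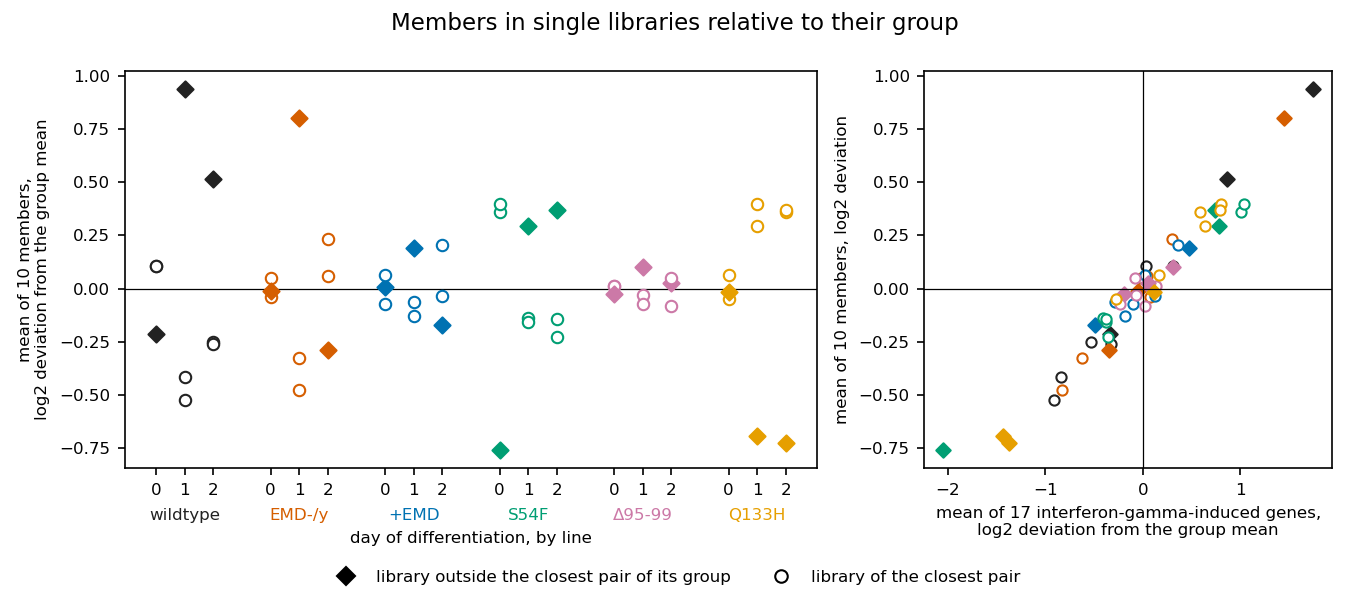
Left, mean log2 deviation of the 10 members from their group mean in each of 54 libraries, by line and day, with the library outside the close pair of its group as a diamond. Right, the same mean against that of 17 γ-interferon-induced genes. The points lie along a line (r = 0.98), from S54F day 0 library c at -0.76 to wildtype day 1 library a at 0.94.

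Across the 18 group means, the members fell into partly separate patterns. Psmb8 and Psmb9 had r = 0.94, Tap1 and Psmb9 0.93, and the heavy chains H2-K1 and H2-D1 0.88. B2m was apart from them, with r between 0.05 and 0.32 to the other members, while H2-K1 ranged from 0.10 (B2m) and 0.28 (Nlrc5) to 0.88. Tap2 had r = 0.39 to Tap1, with a range from 0.17 (Nlrc5) to 0.55 (H2-K1 and Tapbp), although within groups the deviations of both transporter subunits had r = 0.97 over 54 libraries. Genes outside the lists whose group means were most like the mean profile of the members, of 12487 searched, were Gm4951 (r = 0.97), Gm12250 (0.95), Ifi47 (0.94), Gvin1 (0.94) and Gm4841 (0.94). Ifi47 is an interferon-inducible GTPase. Its group mean was 6819 in wildtype at day 0, 954 at day 1 and 698 in Q133H at day 0.

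The other genes of the pathway are given by list, beside the 10.3% of all genes that were called lower in wildtype from day 0 to day 1. Of the other class I and class Ib heavy chains, 4 of 11 tested were called lower from day 0 to day 1 in wildtype (median -0.93), H2-T23 (-2.57 ± 0.50 (SE), limma adjusted p = 2.86e-05) the most. Of 7 genes of peptide trimming and loading in the endoplasmic reticulum, 2 were called lower, Erap1, the trimming peptidase, and Tapbpl, the tapasin-like peptide editor. Erap1 had 3969, 4085 and 4227 at day 0 and 1704, 708 and 679.5 at day 1 (-2.13 ± 0.37 (SE), limma adjusted p = 6.49e-06). The general chaperones of the list were not called. Of 9 other proteasome genes 2 were called lower, Psme1 and Psme2, which form the PA28 activator. Psme2 had 5485, 5802 and 5045 and 3551, 1524 and 1405 (-1.47 ± 0.33 (SE), limma adjusted p = 0.000199). The constitutive subunits Psmb5, Psmb6 and Psmb7 that the immunoproteasome replaces were not called.

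Genes of the interferon signal were lower as well. Of 14 genes of the γ-interferon receptor and its signal, 7 were called lower in wildtype from day 0 to day 1 (median -1.08). Socs1, the feedback inhibitor of the receptor, had 1239, 1207 and 578 at day 0 and 148, 30.8 and 49.5 at day 1 (-3.94 ± 0.50 (SE), limma adjusted p = 1.65e-08). Library a of day 1 was again the highest of its day. Of 17 γ-interferon-induced genes outside antigen processing, 16 were called lower by limma (median -3.47). The other, the adhesion molecule Icam1, was called higher (2.91 ± 0.42 (SE), limma adjusted p = 2.13e-07). By limma-voom, 16 of the 17 were called in either direction. The 16 called lower by limma include Irgm2, which was near the floor in wildtype, at 30.9, 0 and 4.06 at day 0 and 0, 0 and 0 at day 1. The summed level of the 17 was 186500, 189300 and 129900 at day 0 and 57680, 6593 and 6158 at day 1. Cxcl9, a chemokine that draws T cells, had 1491, 1446 and 1266 and then 109.9, 4.1 and 3.16 (-6.72 ± 1.03 (SE), limma adjusted p = 6.01e-07). Of the 7 MHC class II genes all were called lower (median -3.26), Ciita, the class II counterpart of Nlrc5, from 792, 839 and 277 to 185, 2.05 and 3.16 (-5.42 ± 1.31 (SE), limma adjusted p = 0.000531). The 10 factors that sit on class I promoters, of the RFX, NF-Y, CREB and NF-κB families, had no call by limma or limma-voom (median -0.01), although 8 had an unadjusted p under 0.05.

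The same lists in Q133H against wildtype at day 0, where 8.49% of all genes were called lower, gave 15 of 17 γ-interferon-induced genes called lower (median -2.86), 6 of 14 signal genes (-0.92), 3 of 7 class II genes (-2.16), 2 of 7 loading genes, 2 of 9 other proteasome genes and 4 of 11 other class I and class Ib heavy chains (-0.60). Irgm2, an interferon-inducible GTPase of the first list, was called higher there and Cd1d1, of the class Ib list, too (1.68 ± 0.28 (SE), limma adjusted p = 8.57e-06). These 2 genes lie outside the naming rule and were picked by their values. None of the 10 promoter factors was called by limma or limma-voom, with 3 at an unadjusted p under 0.05. The summed level of the 17 genes was 15230, 18760 and 21780 in Q133H at day 0. All 3 libraries were below all 3 of wildtype. In EMD-/y at day 0 it was 151200, 155500 and 123600, in +EMD 96250, 94910 and 80950, in S54F 167800, 166900 and 18240 and in Δ95-99 147700, 146200 and 125000. In S54F library c was near the level of Q133H. Cxcl9 had 14.8, 16.1 and 6.92 in Q133H at day 0 (-6.76 ± 1.03 (SE), limma adjusted p = 1.36e-06) and Erap1 had 1248, 1283 and 1220 (-1.71 ± 0.37 (SE), limma adjusted p = 0.000327). From day 0 to day 1 in Q133H, 4 of the 17 were called higher by limma and by limma-voom, with no other at an unadjusted p under 0.05 (median 1.01), and over the same step the medians were -2.13 in +EMD, -1.65 in S54F and -1.86 in Δ95-99. The lists were chosen with earlier results known, and their counts describe these libraries.

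**Figure D5:**
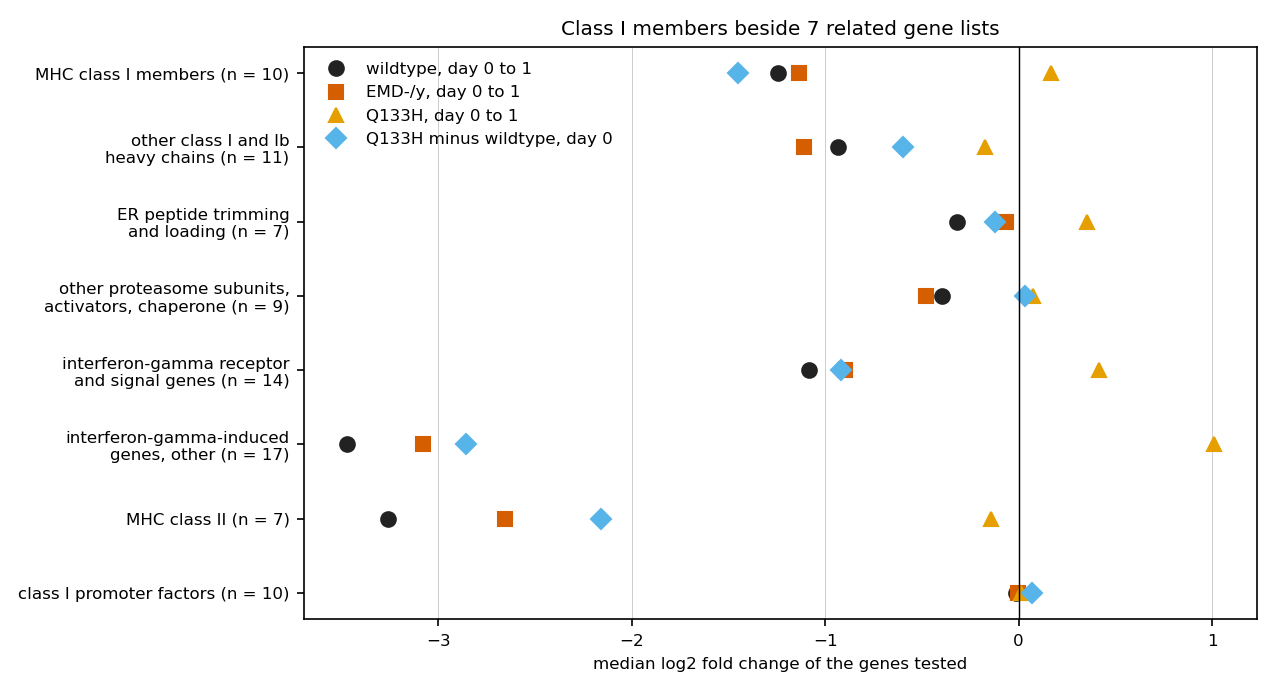
Median log2 fold change of the tested genes of 8 lists (n beside each name) in 4 comparisons, the steps from day 0 to day 1 in wildtype, EMD-/y and Q133H, and Q133H against wildtype at day 0. The class I members lie at -1.24, -1.13, 0.17 and -1.45, the γ-interferon-induced genes at -3.47, -3.08, 1.01 and -2.86, and the class I promoter factors near 0.

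Some members share transcript sequence with other genes. Whether this changed any count was not tested. Of the 100-base windows of its transcripts, the length of a read, Tapbp shared 12.7% with other genes, mainly with the gene model Gm19412, and Psmb9 6.73% and Tap1 3.71% with each other, where their transcripts overlap on opposite strands. Tap2 shared 5.07% and Psmb8 1.51% with overlapping models. Whether reads were counted by strand is not given in the sources used here. B2m, Psmb10 and Nlrc5 shared none.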

How the data were processed

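RNA of 54 samples was sequenced on the DNBseq platform (paired-end reads of 100 bases, poly-A selected), and per the labels aligned to mm10 with HISAT2 and tested with DESeq2. Counter, annotation, strand setting and versions are not given in the sources used here. The authors deposited 27 tables, each with the normalized signal of 2 groups plus fold changes, p-values and up or down calls, which were not used. The tables hold 0 columns of single samples. The deposited signal columns had been assumed to be group means. They proved to encode the mean of 6 normalized counts and a fitted fold. Because these follow from whole counts, the counts of single libraries were recovered by lattice reduction for 19647 of 19653 genes, with recomputed size factors within 0.0162% of each other. A library could be assigned to its group but to no single labelled sample.

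Differences were fitted with limma 3.58.1 (R 4.3.3, trend on) to log2(normalized count + 1) of all 54 libraries with 18 group means, over 15803 genes with a mean of at least 1, and adjusted by the Benjamini-Hochberg method over those genes in each comparison. Fold changes on this scale are slightly understated for low genes. A call needed an adjusted p under 0.05 and a log2 fold change of at least 1 in size, and for differences between day steps the adjusted p alone. Both scripts for recovery and fit were tested on simulated data. Alternatives were limma-voom, pseudocount 4, a minimum mean of 10 or none, total-count scaling, fits of the groups compared only, other thresholds, each library left out, and close pairs averaged, the last chosen after seeing the data. Members and lists were chosen with earlier results of these data known. All 10 members were named, at most 3 genes of each list, those with the largest change from day 0 to day 1 in wildtype among genes called there, and the 5 genes outside the lists with group means most like those of the members. Promoter windows came from RefSeq (GRCm38.p6) and covered 8 of the 10 members, and transcript sequences came from GENCODE vM21. Some named genes are not reported here. Python 3.11.15 was used.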

Additional observations from a re-analysis of the deposited data

Results flagged for a closer look

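Of the 100 tests of whether a member's step between days differed between a line and wildtype, 9 passed a limma adjusted p of 0.05, and all 9 concern the step from day 0 to day 1. In Q133H the step was higher than in wildtype for 8 members. On the log2 scale the difference was 3.4894 for Psmb10 (limma adjusted p = 0.000405), 2.2192 for Tapbp (limma adjusted p = 0.00057), 2.1543 for Psmb9 (limma adjusted p = 0.0107) and 2.1020 for Psmb8 (limma adjusted p = 0.00445). It was 1.9911 for Nlrc5 (limma adjusted p = 0.000758), 1.4960 for Tap1 (limma adjusted p = 0.0045), 1.3600 for Tap2 (limma adjusted p = 0.00959) and 0.4712 for B2m (limma adjusted p = 0.0367). In S54F the step of B2m was higher by 0.5473 (limma adjusted p = 0.0335). Of the 12 fits that left out a library of these groups, B2m passed in 4 for Q133H and in 5 for S54F, Psmb9 in 11, and the other six members in all 12. With close pairs averaged none of the 9 passed.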

How the results depend on the processing

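No paired analysis was possible because the recovered libraries carry no replicate number. Of 150 comparisons of a member with wildtype, 13 were called; 8 were with close pairs averaged, 33 with no minimum fold, and 12 (without +EMD day 2 library a) to 22 (without wildtype day 1 library a) with a library left out. Of 120 day steps, 18 were called, 5 with close pairs averaged, 38 with no minimum fold and 16 to 22 with a library left out. Between +EMD and EMD-/y 1 of 30 was called, 0 with close pairs averaged or at an adjusted p under 0.01, 4 with no minimum fold and 0 to 3 with a library left out. Of 100 differences between day steps 9 passed, 0 with close pairs averaged, and 6 (without wildtype day 1 library c) to 30 (without wildtype day 1 library a) with a library left out. Averaging leaves 36 values, fewer than 54; beyond that the cause was not tested. Under limma-voom, the other filters, pseudocount 4, total-count scaling and fits of only the groups compared, these counts stayed within 1.5 times. No call of a member changed direction under any alternative. The depth is similar in all libraries. Between 2 libraries of a group, the mean chi-square per gene against counting error was between 2.41 and 121. What limits these comparisons was not tested.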

Other observations

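Irgm2, an interferon-inducible GTPase of the list of γ-interferon-induced genes, separated wildtype from the other lines. It had 30.9, 0 and 4.06 normalized counts in wildtype at day 0, 0, 0 and 0 at day 1 and 0, 14.1 and 0 at day 2. In EMD-/y it had 7137, 7297 and 6018 at day 0 and 3656, 430 and 346 at day 1. The other four lines, which derive from EMD-/y, had between 368 and 8332 in every library. It was 7.34 ± 0.98 (SE) higher on the log2 scale in Q133H than in wildtype at day 0 (limma adjusted p = 1.07e-07), the opposite direction to the 15 genes of its list that were called lower. This gene was named after its values were seen. Within the 5 lines that express it, the libraries that stood apart in the class I members stood apart in Irgm2 as well. In S54F at day 0 it had 8039, 8332 and 1441, and in Q133H 368, 3934 and 4139 at day 1 and 3408, 3802 and 475 at day 2.

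Icam1 was the other exception in that list. From day 0 to day 1 it was called higher in wildtype and in EMD-/y, by 2.91 ± 0.42 (SE) (limma adjusted p = 2.13e-07) and 3.28 ± 0.42 (SE) (limma adjusted p = 2.11e-08) on the log2 scale, while 6 of the 10 class I members fell.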
